A study of Homo sapiens with 12 samples.

Results

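The genes described here are 10 regulators of the mitochondrial route of apoptosis: the pro-survival members BCL2, BCL2L1 and MCL1, the effectors BAX and BAK1, and the BH3-only members BID, BIK, BMF, PMAIP1 and BBC3. They were chosen by name, and each was read from the probe set that is annotated to that gene alone and has the highest mean over the arrays. This gave a value for 9 of the 10 members, out of 19775 genes with such a probe set. BBC3 has only 1 probe set, which is annotated to 3 genes, and therefore has no value here. The arrays were 12 Affymetrix HG-U133 Plus 2.0 arrays of total RNA from Hs578T and BT-20, both established human breast cancer cell lines.

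All cells had received 200 nM of an oligonucleotide for 24 h with the liposomal transfection reagent DOTAP. M and U were a double-stranded DNA of 1 sequence, with the CpG cytosines methylated on both strands in M and unmethylated in U. Each was measured on 2 arrays per cell line, numbered set 1 and set 2 and labelled biological replicates. ODN2006 and ODN2006 control were single-stranded, with 1 array each per cell line and no set number. The sample titles carry the name CDH13 for every array, those of the ODNs included. Untreated cells and cells given DOTAP alone are not among the arrays used here, so each comparison is between lines or between oligonucleotides.

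The ODNs are shown because they are the pair compared here that differs in base order alone. ODN2006 is a synthetic CpG ligand of Toll-like receptor 9, and its control holds GpC in place of CpG. The capitals mark the 4 CpG of ODN2006 and the 4 GpC of the control.
ODN2006: tCGtCGttttgtCGttttgtCGtt
ODN2006 control: tGCtGCttttgtGCttttgtGCtt

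Apoptosis through mitochondria is decided by contacts between these proteins. BAX and BAK1 open the outer mitochondrial membrane, which releases cytochrome c and starts the caspases. BCL2, BCL2L1 (BCL-XL) and MCL1 hold BAX, BAK1 and the BH3-only proteins bound, and the BH3-only proteins free or activate the effectors. MCL1 is known to be amplified in some breast cancers. The arrays measured mRNA, and the activity of many of these proteins is set after translation, by cleavage of BID and by the fast turnover of MCL1.

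Values are on the log2 scale of GCRMA, a method that corrects each probe for background binding by its base content. A value of 5 was taken as the level above which a gene was called measurable, and a gene was tested when at least 2 arrays of a comparison reached it. Of the 9 members with a value, BCL2L1, MCL1, BAX, BAK1, BID and PMAIP1 were at or above 5 in all 12 arrays. BCL2, BIK and BMF were under 5 in all 12 arrays and were not tested. Levels of different genes were not compared, since probe sets differ in brightness.

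The lines were checked against cell type markers. Of 8 mammary epithelial markers, 3 were at 5 or above in all 6 Hs578T arrays, where CDH1, EPCAM and KRT19 were under 5, against 8 of 8 in the 6 BT-20 arrays. All 8 mesenchymal markers were at 5 or above in the 6 Hs578T arrays, against 3 of 8 in the 6 BT-20 arrays. The leukocyte markers that had a value were under 5 in every array. The array medians lay between 3.01 and 3.08, and no array stood apart from the others of its line, the lowest correlation within a line being 0.985.

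**Figure D1:**
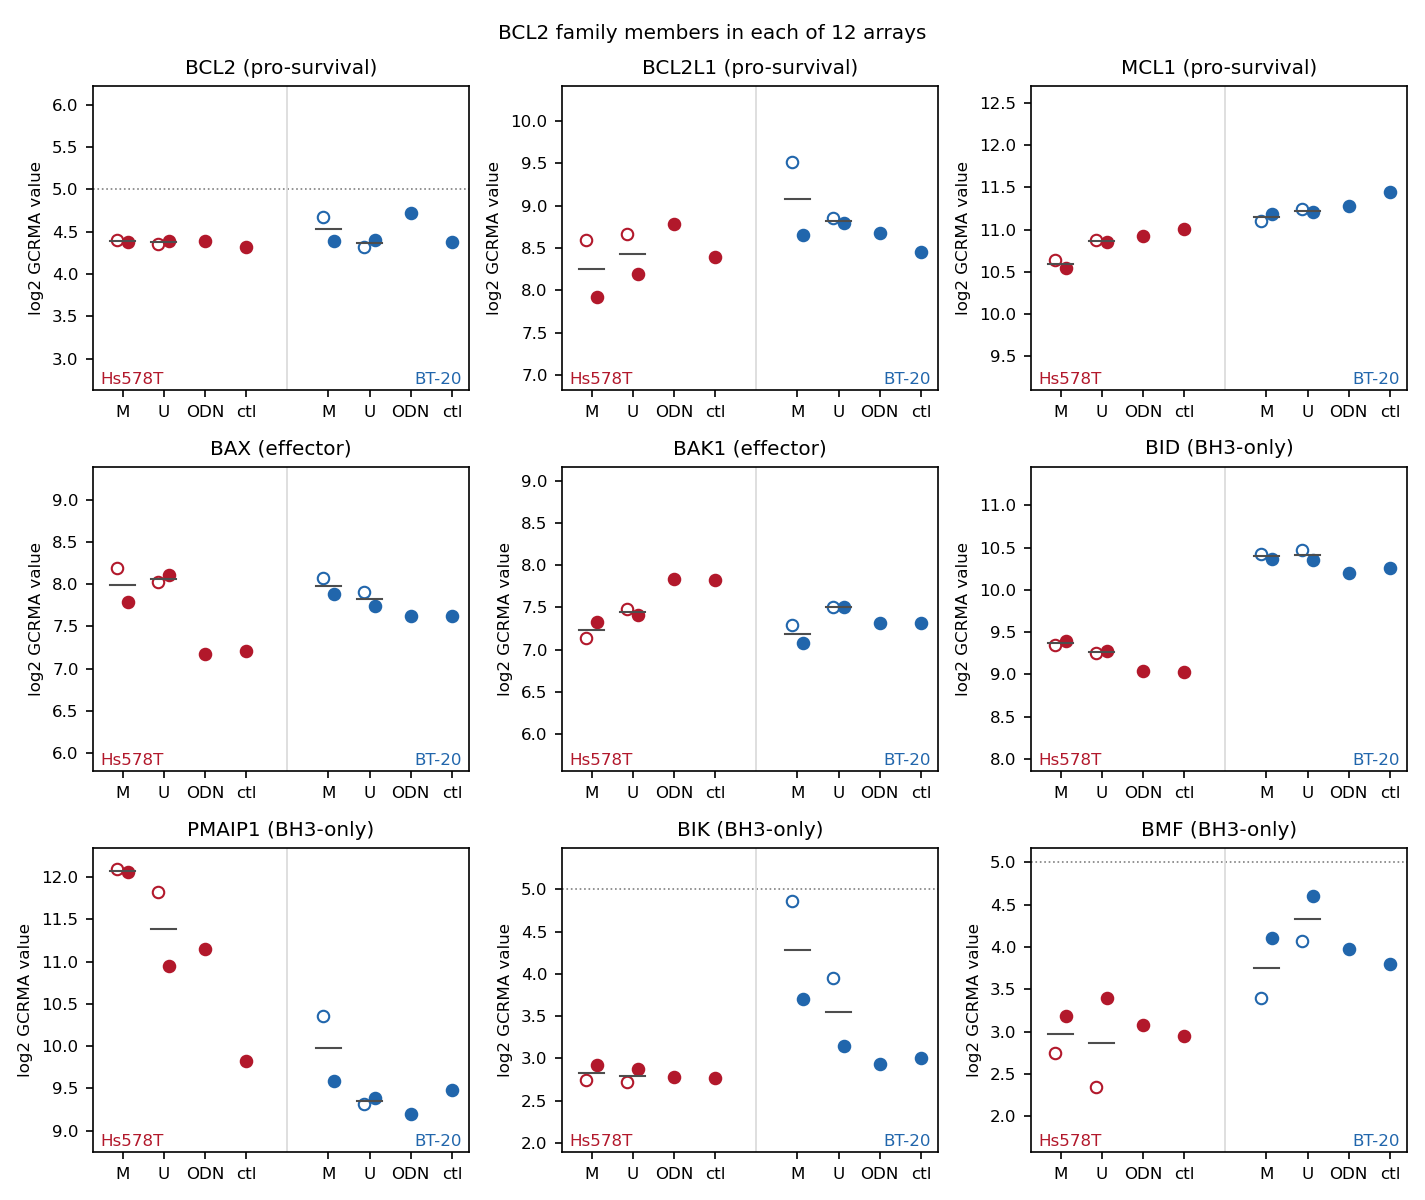
Log2 GCRMA values of the 9 members with a probe set of their own, 1 panel per gene with a vertical range of equal width. Points are single arrays of Hs578T (red, left) and BT-20 (blue, right), open circles for set 1, filled circles for set 2 and for the ODN arrays, short lines are means of 2 arrays, and the dotted line is the level of 5. PMAIP1 reached 12.09 in Hs578T cells given M, and BID ran up to 9.39 in Hs578T but not below 10.19 in BT-20.

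The cell lines were compared first, over the 4 M and U arrays of each line. PMAIP1 was higher in Hs578T, whereas BID and MCL1 were lower in Hs578T than in BT-20. BAX and BAK1 lay at similar values in both lines. Of the 6 members tested, 1 was called higher and 2 lower in Hs578T, at a Benjamini-Hochberg adjusted P under 0.05 with limma. Over all 10410 genes tested, 34.4% were called higher and 40.2% lower, or 74.6% in either direction. A call between these lines is therefore common, and the members' share does not exceed the background.

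PMAIP1 encodes NOXA, a BH3-only protein that binds mainly MCL1 and promotes its degradation. Its level in Hs578T was 12.09 and 12.06 with M in sets 1 and 2, 11.82 and 10.95 with U, 11.15 with ODN2006 and 9.82 with the control. In BT-20 it was 10.36 and 9.59 with M, 9.32 and 9.39 with U, 9.19 with ODN2006 and 9.49 with the control. All 4 Hs578T arrays of M and U lay above all 4 BT-20 arrays of M and U. Over all 12 arrays the lines overlapped, since Hs578T cells given the ODN control fell below BT-20 cells given M in set 1.

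The fitted difference of PMAIP1 was 2.07 on the log2 scale, or 4.19-fold higher in Hs578T (SE 0.24, 95% interval 1.49 to 2.64, limma adjusted P=2.27e-04, n=4 arrays per line). Its size lay at percentile 80.1 of all genes tested. The other PMAIP1 probe set differed by 2.00, with a mean of 10.12 ± 0.83 in Hs578T and 8.12 ± 0.46 in BT-20 (SD, n=4 each). Both sets of arrays gave a difference of this size, 2.12 in set 1 and 2.02 in set 2, while the ODN arrays gave 1.14.

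The transcript start of PMAIP1 is shown because this gene had the largest difference between the lines among the members, and RefSeq (GRCh38.p14) holds 1 window for it. The 250 bases before the start lie at chr18:59899746-59899995 on the plus strand. The capitals mark the 1 match to ACGTCA, or TGACGT on the other strand, the half-site of the cAMP response element that ATF and CREB proteins bind, which begins 56 bases before the start.
PMAIP1 upstream: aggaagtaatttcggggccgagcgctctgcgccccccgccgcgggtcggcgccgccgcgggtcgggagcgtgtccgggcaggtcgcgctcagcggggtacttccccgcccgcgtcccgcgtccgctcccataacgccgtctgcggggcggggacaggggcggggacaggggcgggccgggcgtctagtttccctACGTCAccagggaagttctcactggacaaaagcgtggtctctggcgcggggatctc
The same letters occur on either strand in 7.10% of 35116 RefSeq windows of this length, and in no window of the other 7 members that have one. The window also holds 4 matches to GGGCGG, or CCGCCC, the GC box that SP1 binds, and at least 4 occur in 7.63% of all windows. No match to TGATGCAA, or TTGCATCA, the core of an amino acid response element found in 0.772% of all windows, was in the window of PMAIP1. These are matches of letters, and binding was not measured.

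BID is the BH3-only protein that caspase-8 cleaves, which joins the death receptors to the mitochondrial route. Its level in Hs578T was 9.35 and 9.39 with M in sets 1 and 2, 9.26 and 9.28 with U, 9.04 with ODN2006 and 9.03 with the control. In BT-20 it was 10.43 and 10.36 with M, 10.47 and 10.35 with U, 10.19 with ODN2006 and 10.26 with the control. The lines did not overlap in any of the 12 arrays. BID fell by 1.09 on the log2 scale in Hs578T relative to BT-20, or was 2.12-fold lower (SE 0.08, 95% interval -1.29 to -0.88, limma adjusted P=3.16e-05, n=4 arrays per line). All 3 BID probe sets had the lines apart in this direction, with differences between -1.26 and -1.06.

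MCL1 is a short-lived pro-survival protein and the main partner of NOXA. Its level in Hs578T was 10.64 and 10.55 with M in sets 1 and 2, 10.88 and 10.85 with U, 10.92 with ODN2006 and 11.00 with the control. In BT-20 it was 11.11 and 11.18 with M, 11.24 and 11.21 with U, 11.28 with ODN2006 and 11.45 with the control. Every Hs578T array lay below every BT-20 array. MCL1 fell by 0.46 in Hs578T relative to BT-20, or was 1.37-fold lower (SE 0.08, 95% interval -0.66 to -0.26, limma adjusted P=0.00219, n=4 arrays per line). Of 5 MCL1 probe sets that were measurable, 4 had the lines apart over the M and U arrays, all with Hs578T lower. The fifth differed by -0.17 and overlapped.

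BCL2L1 encodes BCL-XL, the pro-survival protein that holds both effectors. Its level in Hs578T was 8.59 and 7.92 with M in sets 1 and 2, 8.66 and 8.20 with U, 8.78 with ODN2006 and 8.40 with the control. In BT-20 it was 9.51 and 8.65 with M, 8.85 and 8.79 with U, 8.68 with ODN2006 and 8.45 with the control. The lines overlapped. The fitted difference of -0.61 did not pass the threshold (SE 0.24, 95% interval -1.19 to -0.03, limma adjusted P=0.0564, n=4 arrays per line), and over the ODN arrays it was 0.03.

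The call for BCL2L1 depended on the processing and on single arrays, and it passed in 7 of 17 alternatives. With the set as a replicate block, a term shared by both lines, the adjusted P was 0.00953 at the same difference. M and U arrays of 1 set deviated together mainly within a line, which the shared term does not model. This P-value thus still treats the M and U arrays of a set as independent. Over left-out arrays the difference ran from -0.83 to -0.40 and passed in 2 of 8 cases, without the Hs578T M array of set 1 (-0.78, adjusted P=0.0348) and without the BT-20 M array of set 2 (-0.83, adjusted P=0.0146). It was smallest without the BT-20 M array of set 1 (-0.40, adjusted P=0.144).

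BAX and BAK1 are the effectors that form the pores. BAX in Hs578T was at 8.20 and 7.79 with M in sets 1 and 2, 8.02 and 8.11 with U, 7.17 with ODN2006 and 7.21 with the control. In BT-20 it was at 8.07 and 7.88 with M, 7.91 and 7.74 with U, and 7.63 with both ODN2006 and the control. Over the M and U arrays the lines overlapped, with a fitted difference of 0.13 (SE 0.12, 95% interval -0.17 to 0.42, limma adjusted P=0.377). This difference was -0.04 when each array was centred on housekeeping genes, so its direction is not settled.

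BAK1 in Hs578T was at 7.14 and 7.32 with M in sets 1 and 2, 7.48 and 7.41 with U, 7.84 with ODN2006 and 7.82 with the control. In BT-20 it was at 7.29 and 7.08 with M, 7.50 and 7.50 with U, and 7.32 with both ODN2006 and the control. The fitted difference of -0.01 was small against its error (SE 0.10, 95% interval -0.24 to 0.23, limma adjusted P=0.960). Its sign turned between set 1, at -0.09, and set 2, at 0.08. It also turned without the Hs578T M array of set 1 (0.04), the BT-20 M array of set 1 (0.05) and the Hs578T U array of set 2 (0.01). For neither effector does the P-value show that the lines were equal, and the intervals allow a difference of up to 0.42 for BAX and of -0.24 to 0.23 for BAK1.

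The 3 members under 5 are given by their range. BCL2, whose protein gave the family its name, ran from 4.32 to 4.40 in Hs578T and from 4.32 to 4.72 in BT-20, and its 3 other probe sets were under 5 in all arrays as well. BIK, a BH3-only protein of the endoplasmic reticulum, ran from 2.72 to 2.93 in Hs578T and from 2.94 to 4.86 in BT-20. Its 6 BT-20 arrays lay above its 6 Hs578T arrays, but none reached 5. BMF, which is held at the cytoskeleton until released, ran from 2.34 to 3.40 in Hs578T and from 3.39 to 4.60 in BT-20, so that the lines just overlapped. Differences at this level rest on probes near background and were not tested.

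By role, the median difference of the 2 pro-survival members tested, of which only MCL1 was called, was -0.53, against -0.09 over all genes tested. Of the 2 effectors 1 was positive and 1 negative, with a median of 0.06. Of the 2 BH3-only members tested, PMAIP1 was higher and BID lower. The pro-death members thus did not share a direction between the lines. In RNA of whole cultures, fewer cells that express a gene and less RNA per cell cannot be told apart.

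**Figure D2:**
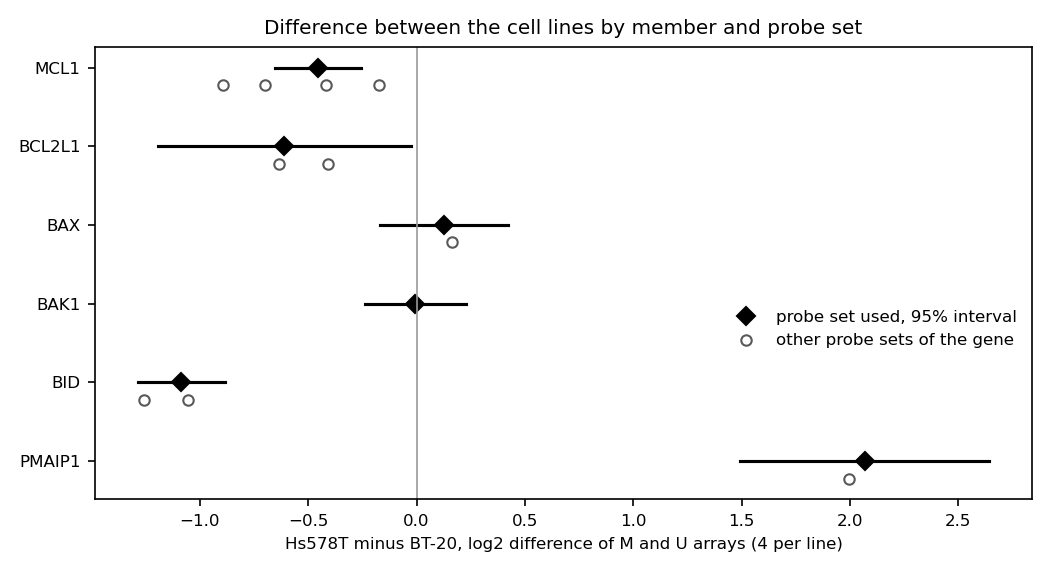
Difference between Hs578T and BT-20 (horizontal axis, log2, M and U arrays, 4 per line) for the 6 members tested. Diamonds are the probe sets used with their 95% intervals, and circles are the other measurable probe sets of the gene. PMAIP1 lies at 2.07 and BID at -1.09, with their other probe sets on the same side, while the intervals of BAX and BAK1 include 0.

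Around these genes, 53 other genes of the apoptotic machinery were listed, of which 6 were not analysed here, 47 had a value and 41 were tested. Between the lines, 13 were called higher and 17 lower in Hs578T, and 11 were not called. These 30 of 41 lie near the background of 74.6%, so their number says nothing particular about the list. Of the 41, 4 were under 5 in all 4 M and U arrays of 1 line (TNFRSF10D, BCL2L11, HRK and CASP10). They passed the filter only through the brighter line, and their differences are given as bounds, the brighter line's mean against 5. The counts of calls here and below include them, TNFRSF10D among the higher and BCL2L11, HRK and CASP10 among the lower. The median difference of the 41 genes was -0.10, close to that of all genes tested. The 41 genes are grouped here by function.

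Among the relatives with a BH3 or BH3-like domain, 4 of 7 tested were called higher and 3 lower, BCL2L11 and HRK among the lower. BNIP3L and BNIP3, which also mark mitochondria for autophagy, were higher in Hs578T by 3.03 and 2.69. BNIP3 averaged 11.61 ± 0.16 in Hs578T and 8.93 ± 0.19 in BT-20 (SD, n=4 each). BCL2L11 (BIM), an activator of both effectors, was under 5 in Hs578T and averaged 7.67 ± 0.27 in BT-20 (SD, n=4), at least 6.37-fold lower in Hs578T. HRK, which binds BCL2 and BCL-XL, was at least 2.06-fold lower.

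Of the pro-survival relatives, BCL2L12 differed by -0.65 and passed, and BCL2L2 (BCL-W), at 0.06, was not called. Among 10 genes of mitochondrial release and the apoptosome, 2 were higher and 3 lower. HTRA2, a protease that releases caspases from their inhibitors, differed by 1.78. AIFM1, ENDOG and APAF1, the scaffold of the apoptosome, differed by -1.97, -1.04 and -0.52. CYCS, CASP9, DIABLO, VDAC1 and VDAC2 were not called. CASP6, an executioner caspase, was 1.99-fold lower in Hs578T.

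Among the inhibitors of apoptosis, BIRC2 and BIRC5 were higher by 1.16 and 0.69, and XIAP and BIRC6 differed by -1.55 and -0.62. In the death receptor arm, 3 of 10 tested were higher, TNFRSF10D among them, and 5 lower, CASP10 among them. Of 5 receptors tested, 3 were called higher, TNFRSF1A was called lower (-0.69), and TNFRSF10A differed by -0.21 and was not called. TNFRSF10D, a decoy receptor for TRAIL, averaged 8.48 ± 0.70 in Hs578T (SD, n=4) and was under 5 in BT-20, at least 11.2-fold higher in Hs578T. TNFRSF10B differed by 2.86. FAS differed by 3.66, with only 1 of its 4 BT-20 arrays at 5 or above, and by 3.03 with values under 5 raised to 5. CASP10, an initiator caspase of these receptors, was under 5 in Hs578T and at 5 or above in 3 of 4 BT-20 arrays, at least 1.42-fold lower in Hs578T.

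Of 7 tested regulators of BH3-only genes or of MCL1 turnover, 2 were higher and 2 lower. ATF4 and DDIT3 (CHOP), stress transcription factors known to drive PMAIP1 and other BH3-only genes, were higher by 1.37 and 1.20. FOXO3, a transcription factor of BCL2L11, differed by -2.13, and FBXW7, a ligase subunit that marks MCL1 for degradation, by -1.30. USP9X and HUWE1, which remove and add ubiquitin on MCL1, were not called.

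**Figure D3:**
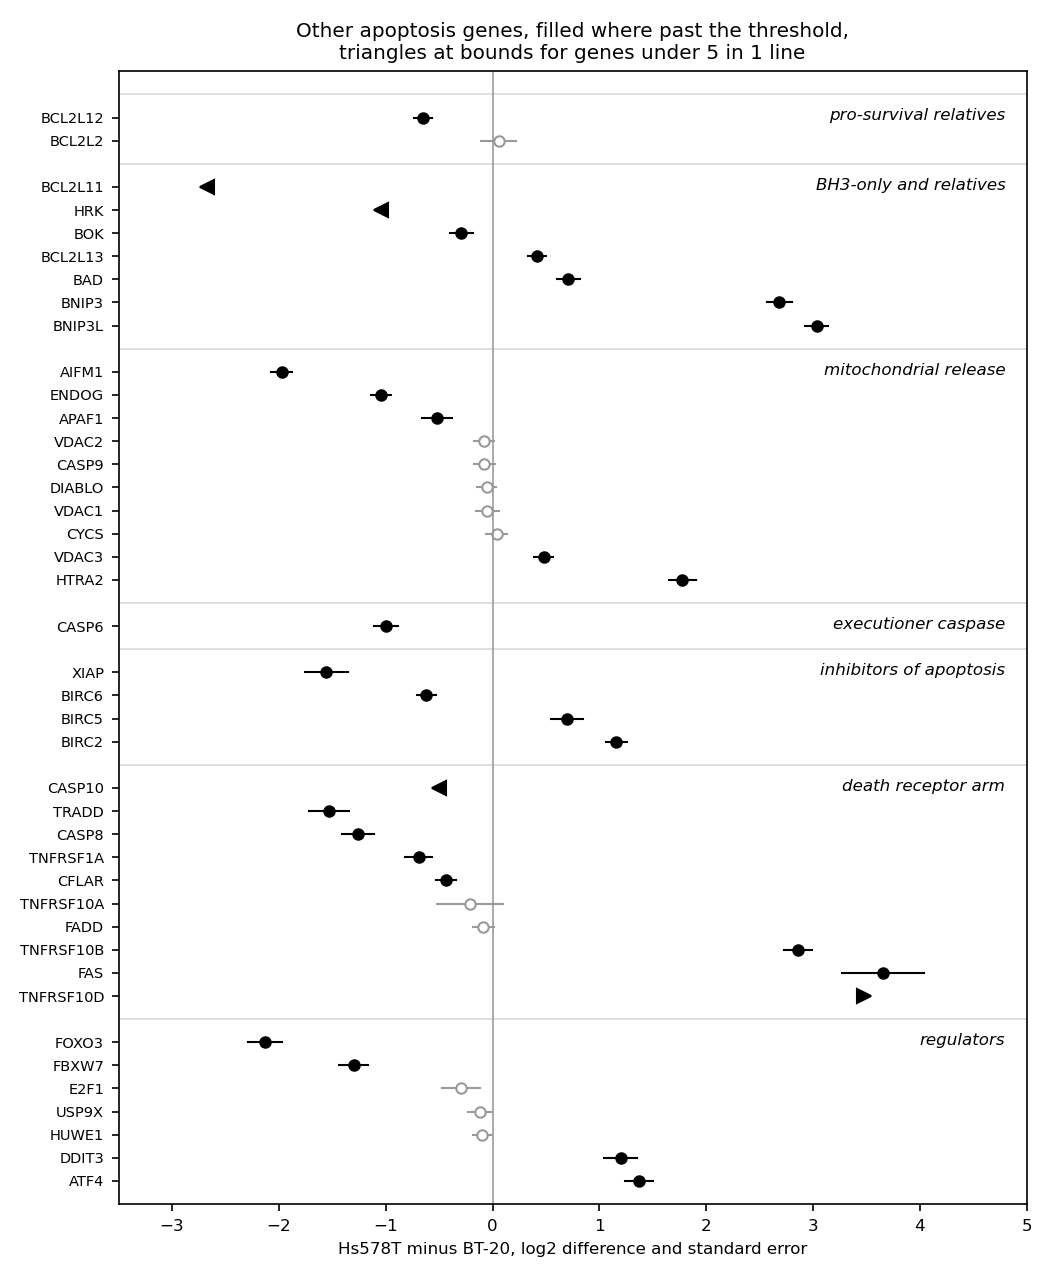
Difference between Hs578T and BT-20 (horizontal axis, log2, with standard error) in the M and U arrays, 4 per line, for the 41 other apoptosis genes tested, grouped by function. Filled points and triangles passed an adjusted P of 0.05 with limma, together 13 to the right and 17 to the left. Open grey points, 11 in all, did not. The 4 triangles are genes under 5 in all 4 arrays of 1 line, drawn at their bounds in place of points. BNIP3L at 3.03 and BNIP3 at 2.69 lie to the right, FOXO3 at -2.13 and AIFM1 at -1.97 to the left.

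M was then compared with U, which differ only in the methylation of the CpG cytosines. With limma no gene passed in either line, over the lines together or as the difference between them, so 0% of 10410 genes were called each time. At an unadjusted P under 0.05 there were 680 genes in Hs578T (6.53%) and 174 in BT-20 (1.67%). Over the lines together there were 543 (5.22%), and 258 (2.48%) for the difference. No member was called. In the single lines and in the difference between them, no member reached an unadjusted P of 0.05. With the set as a replicate block no gene was called either. At the same unadjusted level the block gave 1464 genes for Hs578T (14.1%) and 508 for BT-20 (4.88%), then 807 for the lines together (7.75%) and 741 for their difference (7.12%). In that fit MCL1 in Hs578T just reached this level (-0.27, limma adjusted P=0.355). Over left-out arrays the counts ran from 360 to 991 in Hs578T and from 161 to 691 in BT-20.

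Over both lines, PMAIP1 and BAK1 reached an unadjusted P of 0.05, with and without the block, but each did so in only 2 of 8 cases with an array left out. PMAIP1 was higher with M in 4 of 4 pairs of arrays. M minus U was 0.27 in set 1 and 1.11 in set 2 of Hs578T, and 1.05 in set 1 and 0.20 in set 2 of BT-20. The fitted difference was 0.66 (SE 0.24, unadjusted P=0.0309, limma adjusted P=0.936). The other PMAIP1 probe set was at 10.75 and 10.58 with M in Hs578T, against 10.23 and 8.91 with U, and at 8.75 and 8.09 with M in BT-20, against 7.99 and 7.65 with U. It was thus also higher with M in all 4 pairs, though both probe sets read the same RNA.

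BAK1 was lower with M in 4 of 4 pairs. M minus U was -0.34 in set 1 and -0.09 in set 2 of Hs578T, then -0.22 in set 1 and -0.42 in set 2 of BT-20. The fitted difference was -0.27 (SE 0.10, unadjusted P=0.0303, limma adjusted P=0.936). The MCL1 probe set used was lower with M in 4 of 4 pairs, with -0.24 and -0.30 in Hs578T, then -0.13 and -0.02 in BT-20. Its 4 other measurable probe sets were lower in 3, 3, 1 and 0 of 4 pairs, so the direction of MCL1 with M is not settled. BCL2L1, BAX and BID had pairs of both signs. None of these differences holds after adjustment over all genes. The share of all genes with the same sign in 4 of 4 pairs was not counted, so the signs of PMAIP1, BAK1 and MCL1 have no background to be read against.

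ODN2006 was set against its control with 1 array each per line, and the spread was taken from the replicated M and U arrays, on the assumption that the lone arrays vary like them. Over both lines 1 of 10543 genes was called, 0.00948%, and 490 reached an unadjusted P of 0.05, or 4.65%. No member was called or reached an unadjusted P of 0.05. PMAIP1 differed most, by 1.33 in Hs578T (11.15 with ODN2006 and 9.82 with the control) and by -0.29 in BT-20 (9.19 with ODN2006 and 9.49 with the control). Its direction thus differed between lines, on 1 array each. BAX, BAK1 and BID differed by at most 0.07 in either direction in each line.

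**Figure D4:**
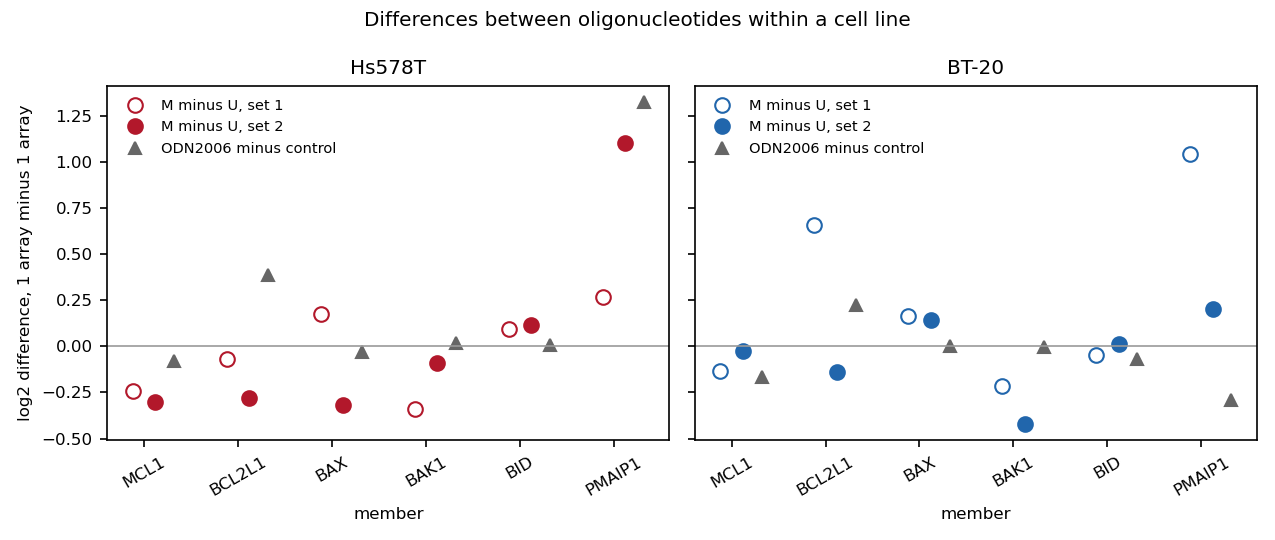
Log2 difference between single arrays (vertical axis) for the 6 members tested, in Hs578T (left) and BT-20 (right). Circles are M minus U in set 1 (open) and set 2 (filled), and triangles are ODN2006 minus its control. PMAIP1 is above 0 in all 4 pairs of M and U, by 0.20 to 1.11, and BAK1 is below 0 in all 4.

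The ODN arrays, ODN2006 and its control joined, were last set against the M and U arrays of set 2, whose array names share their ending. These kinds of oligonucleotide differ in sequence, in strands, in chemistry and possibly in culture, which cannot be told apart here. In Hs578T, 937 of 10375 genes were called, 9.03%, of which 402 were higher (3.87%) and 535 lower (5.16%) with the ODNs. Of the 6 members tested 1 was called, BAX, which was lower. This count of genes rested on single arrays. It was 135 without the Hs578T ODN2006 array, 165 without the BT-20 M or U array of set 2, 249 without either BT-20 ODN array, 271 without the Hs578T M array and 1528 without the Hs578T U array.

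BAX was at 7.17 and 7.21 in Hs578T cells given the ODNs, against 7.79 and 8.11 in those given M and U in set 2. Both ODN arrays also lay below both M and U arrays of set 1. BAX fell by 0.76 with the ODNs (SE 0.13, 95% interval -1.07 to -0.44, limma adjusted P=0.0265, n=2 arrays each). Its other probe set was at 7.19 and 6.91 with the ODNs, against 7.54 and 7.53 with M and U in set 2, and so moved the same way. The call did not hold without the Hs578T ODN2006 array (-0.74, adjusted P=0.0919), the Hs578T control array (-0.77, adjusted P=0.0507), the BT-20 M or U array (-0.76, adjusted P=0.0653) or either BT-20 ODN array (-0.76, adjusted P=0.0621).

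The 250 bases before the start of BAX are shown for this reason, at chr19:48954625-48954874 on the plus strand of GRCh38.p14 (RefSeq). The capitals mark 4 matches to CACGTG, the E-box that MYC and related factors bind, which reads the same on both strands. They begin between 138 and 14 bases before the start.
BAX upstream: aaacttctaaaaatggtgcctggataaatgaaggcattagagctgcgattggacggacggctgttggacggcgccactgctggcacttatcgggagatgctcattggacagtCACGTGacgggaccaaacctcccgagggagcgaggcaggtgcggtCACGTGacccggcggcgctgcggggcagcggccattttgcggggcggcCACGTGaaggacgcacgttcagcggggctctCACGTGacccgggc
At least 1 match occurs in 6.34% of the 35116 windows and at least 4 in 0.0142%. Among the other members with a window, BID has 1 match in each of 2 of its 5 windows, and BBC3 has 1 match in its 1 window. The BAX window also holds 1 match to the GC box, which occurs at least once in 42.6% of all windows. No match to the half-site of the cAMP response element or to the core of the amino acid response element was in it. These again are matches of letters only, and a link to the difference of BAX was not tested.

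In BT-20, BAX was at 7.63 in both ODN arrays, against 7.88 and 7.74 with M and U in set 2. At the probe set used it was again below all 4 M and U arrays of its line. However, 0 of 10375 genes were called in BT-20, 0%, and 534 reached an unadjusted P of 0.05, or 5.15%. No member did so. The difference of BAX between the lines, -0.57, did not pass (SE 0.19, unadjusted P=0.0194, limma adjusted P=0.235). In that test, added after seeing the data, 0.270% of 10375 genes were called (0.202% higher, 0.0675% lower) and 16.0% reached an unadjusted P of 0.05. The same held for BCL2L1, at 0.69 (SE 0.25, unadjusted P=0.0281, adjusted P=0.258), and neither passed in any of 15 alternatives.

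In Hs578T, 3 further members reached an unadjusted P of 0.05, as did 29.4% of all genes. BCL2L1 differed by 0.53 (SE 0.18, limma adjusted P=0.103), by 0.34 without the ODN2006 array (adjusted P=0.332) and by 0.25 against M and U arrays of both sets (adjusted P=0.567). BAK1 differed by 0.46 (SE 0.15, adjusted P=0.0995). BID differed by -0.30 (SE 0.10, adjusted P=0.107). BAK1 at 7.84 and 7.82 with the ODNs lay above all 4 M and U arrays, whereas BCL2L1 at 8.78 and 8.40 overlapped with those of set 1. BAX was the only member called here.

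At the probe sets used, the ODN arrays of MCL1 lay above, and those of BAX and BID below, all 4 M and U arrays in both lines. The share of all genes placed in this way was not counted, so the placement is a description and not a result about the members. For BAX and BID every measurable probe set had the same sign of the mean of ODN minus set 2 M and U in both lines. The single arrays overlapped, however, for the other BAX probe set in BT-20 (7.06 and 7.39 against 7.36 and 7.31). They also overlapped for both other BID probe sets in BT-20 and for the brighter of them in Hs578T. The dimmer was at 8.18 and 8.20 in Hs578T with the ODNs. These lay below 8.25 and 8.32 with M and U in set 2, but above 7.79 and 8.17 in set 1. For both other BID probe sets the means of ODN minus set 2 M and U were -0.16 to -0.04. For MCL1 the probe sets disagreed in Hs578T: the set used differed by 0.26, whereas 3 of the other 4 measurable ones differed by -0.21, -0.35 and -0.43 and the other by 0.03. The direction of MCL1 with the ODNs is therefore not settled. The 4 ODN arrays of PMAIP1 overlapped with the M and U arrays in both lines.

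**Figure D5:**
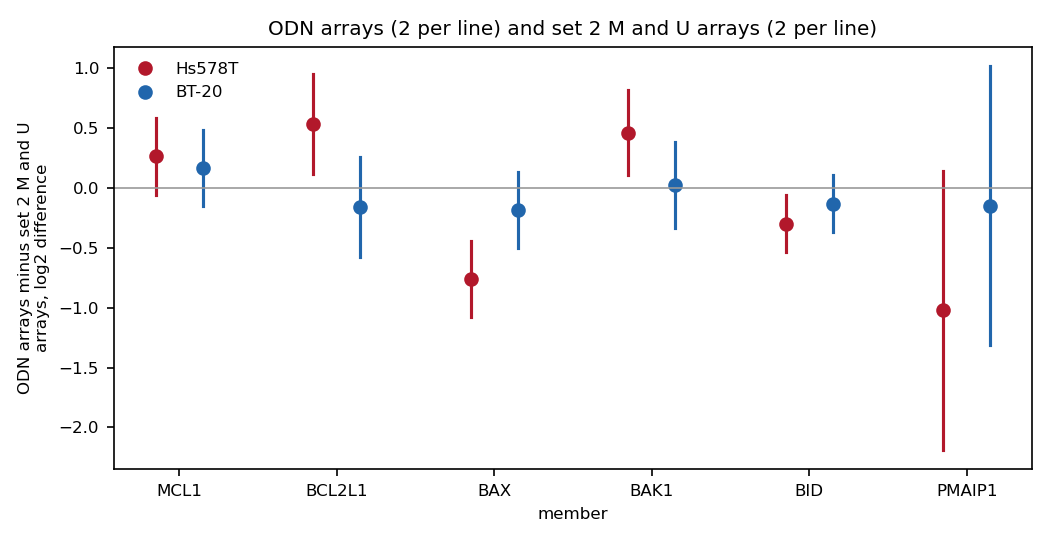
ODN arrays minus set 2 M and U arrays (vertical axis, log2, 2 arrays each per line) for the 6 members tested, with 95% intervals, in Hs578T (red) and BT-20 (blue). BAX in Hs578T lies at -0.76 with an interval of -1.07 to -0.44, and every BT-20 interval includes 0.

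Of the other apoptosis genes, 1 was higher and 2 lower with the ODNs in Hs578T, of 41 tested, with a background of 9.03%. BCL2L2, a pro-survival relative, was at 8.84 and 8.84 with the ODNs, against 7.78 and 7.97 with M and U in set 2 (0.96, SE 0.13, limma adjusted P=0.0136). BCL2L12 was at 7.82 and 8.17, against 8.57 and 8.62 (-0.60, SE 0.14, adjusted P=0.0449). FBXW7 was at 5.02 and 5.77, against 6.90 and 6.63 (-1.37, SE 0.27, adjusted P=0.0349). None was called in BT-20, with M against U or with ODN2006 against its control. These calls rested on single arrays. With each of the 8 arrays of the fit left out in turn, BCL2L2 stayed called in 7 of 8 cases and was lost without the Hs578T ODN2006 array (0.96, adjusted P=0.0573). BCL2L12 stayed called only without the Hs578T control array, and over the 8 cases ran from -0.77 to -0.42 (adjusted P=0.0239 to 0.127). FBXW7 stayed called only without the Hs578T control array or the Hs578T U array, and ran from -1.75 to -0.99 (adjusted P=0.0184 to 0.123).

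Within the lines, PMAIP1 varied most of the members. After each line's mean was taken off, its SD over the 12 arrays was 0.65, at percentile 97.0 of the genes with at least 2 arrays at 5 or above. The SD of BCL2L1 and of BAX was 0.33 each, that of BAK1 0.22, that of MCL1 0.14 and that of BID 0.12. The genes whose line-centred values were most like those of PMAIP1 were SERTAD1 (Pearson r=0.96), TOP1 (r=0.95) and CDK7 (r=0.93), of 10542 genes over 12 arrays. For BAX they were PIGM, NAT8L and PRMT6 (r=0.96 each), and for BCL2L1 TMEM158 (r=0.94), DVL1 and STK17A (r=0.93 each). The arrays share culture sets and oligonucleotides, and the likeness is a description chosen from many genes.

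Among the members, the line-centred values of BAX and BID ran together (r=0.84), and those of PMAIP1 ran with BID (r=0.71) and BAX (r=0.67). BAX and BAK1 ran in opposite directions (r=-0.76). At the probe set used, MCL1 ran opposite to BID (r=-0.80), PMAIP1 (r=-0.74) and BAX (r=-0.60) and with BAK1 (r=0.64). With PMAIP1, the other measurable MCL1 probe sets gave r=0.67, 0.73, 0.53 and -0.47, so that direction is not settled. BCL2L1 ran with none of the others beyond r=0.24. These 12 points share culture sets and oligonucleotides, the ODN arrays among them, and the correlations are given as a description.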

How the data were processed

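Total RNA of oligonucleotide-treated Hs578T and BT-20 cells was hybridized to 12 Affymetrix HG-U133 Plus 2.0 arrays. The deposited log2 values are GCRMA summaries which, per the submitters' processing notes, the authors made in R 2.4, for 54675 probe sets. Whether the arrays were normalized together is not given in the sources used here. The paper's text does not describe the arrays. Probe sets of 1 gene were named through the platform annotation and RefSeq (41097 with 1 gene, 1801 with several, 11777 with none listed; 41043 matched by gene ID), and that with the highest mean stood for the gene. For M, U and the lines, the means of the 4 groups of line and oligonucleotide (8 arrays, 10410 genes) were compared with limma 3.58.1 in R 4.3.3 (contrasts, eBayes, Benjamini-Hochberg over the genes tested, threshold 0.05). ODN2006 was compared with its control in a fit of all 12 arrays, and the ODN arrays with the set 2 M and U arrays in a fit of 8. The test of the difference between lines in the last fit, the use of M and U arrays of both sets, and the left-out arrays and bounds for the other apoptosis genes, were added after seeing the data. All members were named. For M against U and the ODNs, fitted changes are given for members at an unadjusted P under 0.05. Of the other genes, up to 4 per list with the largest change past the threshold between the lines were named, and any called elsewhere. Named beside them were TNFRSF1A, to complete the receptors tested, and some genes that were not called. Members and lists were chosen with earlier results of these data known. The ODN sequences come from the labels. The script was tested on simulated data.

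Whether the set numbers pair the samples was checked by the deviations from the group means. M and U arrays of the same set correlated at r=0.599 in Hs578T and r=0.595 in BT-20, and arrays of different lines at r=0.0984 to 0.131. The numbers were taken to pair M with U within a line, where the array names of a set also share their ending. In the single lines and their difference, the replicate block used a separate set term for each line. Between the lines and for M against U over both lines, it used a term shared by both lines. The labels call the sets biological replicates but do not say how the cultures were kept. The P-values measure the spread between these arrays, which for M and U of 1 set may leave out part of the spread between cultures. The number of arrays limits the precision. The alternatives tried were no filter, centring on the housekeeping genes, quantile normalization, trend and robust variances, a floor at 5, the mean of a gene's probe sets, the replicate block, single sets and lines, and each array left out in turn.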

Additional observations from a re-analysis of the deposited data

How the results depend on the processing

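The calls of PMAIP1, BID and MCL1 between the lines kept their direction and stayed past the threshold in all 17 alternatives, with log2 differences of 1.85 to 2.29, -1.26 to -1.02 and -0.63 to -0.41. BCL2L1 ran from -0.83 to -0.40 (adjusted P=0.00953 to 0.163) and passed in 7 of 17, the replicate block included. The block changed the call of no other member. Over all genes it gave 8135 calls between the lines and 0 for each comparison of M with U, against 7769 and 0 without it. The difference between the lines turned to -0.0449 for BAX with housekeeping centring and to 0.0762 for BAK1 with set 2 alone. Over left-out arrays BAK1 ran from -0.0573 to 0.0458. With the ODNs in Hs578T, BAK1 passed with M and U arrays of both sets (0.49, adjusted P=0.0353), as did BID (-0.28, adjusted P=0.0498), which also passed without the filter (adjusted P=0.0450).

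Housekeeping centring rested on 11 of 15 listed genes. It shifted the median of all genes by -0.17 between the lines, 0.14 for ODN2006 against its control, 0.11 for the ODNs in BT-20 and -0.19 for the difference between lines. The share of calls that were lower with the ODNs in Hs578T was 74.1% with it and 57.1% without, and for the difference between lines 69.2% and 25%.

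Counts of genes called moved by over 1.5 times as follows. ODN2006 against its control gave 150 without the filter, 3 with a floor at 5, 2 in BT-20 alone, and 0 with trend and robust variances, with the 4 ODN arrays alone and in Hs578T alone, and 0 to 1 over left-out arrays. The ODNs in Hs578T gave 1444 with trend and robust variances, 1600 with both sets and 135 to 1528 over left-out arrays. In BT-20 they gave 4 without the filter, 8 with both sets and 0 to 4 over left-out arrays. The difference between lines gave 67 without the filter, 78 with centring, 50 with a floor, 129 with both sets and 7 to 155 over left-out arrays. The causes were not tested. Members under 5 are limited by signal over background.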
